A study of Mus musculus with 6 samples.

Results

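The cluster of miR-322, miR-503, miR-351, miR-542, miR-450a and miR-450b is a run of 7 microRNA hairpins on 1 strand of the mouse X chromosome. Its mature products were taken from the deposited count table by name, as every entry of these hairpins, which gave 13 of the 1915 mature microRNA names in the table. The source was the mouse line iBN, grown in suspension, labelled as granulocyte-macrophage progenitor and carrying an inducible PU.1 system, PU.1 being the myeloid transcription factor encoded by Spi1. Induced cells (3 libraries) had received 1000 ng/ml doxycycline for 72 hours, and uninduced cells (3 libraries) had received none. Both groups carried the inducible system and grew in the same medium with GM-CSF and fetal bovine serum. Cells that lack the inducible gene but received doxycycline were not analysed here. Each group holds trials 1, 2 and 3, which the labels do not describe as separate cultures, so the spread behind each p-value is that of these 6 libraries and could be technical.

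MicroRNAs are cut from hairpins in longer transcripts by Drosha and then Dicer. Each hairpin can give a product from its 5′ side (5p) and one from its 3′ side (3p), of which one usually enters Argonaute and accumulates while the other is degraded. Targets are recognised mainly through the seed, bases 2 to 8. Hairpins of a polycistron start from a shared transcript, yet each mature arm is processed and decays on its own terms. miR-322, the mouse counterpart of human miR-424, and miR-503 are known as brakes on the cell cycle that act on D-type cyclins and Cdc25a, and in human myeloid precursors PU.1 has been reported to activate miR-424 during monocytic differentiation. The host genes of the cluster and PU.1 itself are not read by this assay.

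In RefSeq's annotation of GRCm38, the assembly also called mm10, the 7 hairpins span 6353 bases of the minus strand at chrX:53047997-53054349. In the direction of transcription miR-322 (chrX:53054255-53054349) comes first, miR-503 (chrX:53053984-53054054) follows after a gap of 200 bases and miR-351 (chrX:53053255-53053353) after a further 630. A gap of 3767 bases then separates miR-351 from miR-542 (chrX:53049403-53049487). The 2 miR-450a hairpins (chrX:53048299-53048367 and chrX:53048154-53048244) and miR-450b (chrX:53047997-53048078) close the cluster. RefSeq's span of the long non-coding RNA gene C430049B03Rik, on the same strand, covers the first 3 hairpins and no hairpin downstream of them. GENCODE M21 places no exon or gene other than the microRNA genes over any of the 7, and puts its transcripts of C430049B03Rik upstream of miR-322 and the non-coding gene Gm28730 between miR-351 and miR-542.

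The arms that dominate each hairpin are shown first, because members and other microRNAs are grouped by seed further on. Capitals mark bases 2 to 8, and all sequences are RefSeq's for GRCm38.p6, with the members on the minus strand of chromosome X, matched by name for all 13, with the prefix mmu for mouse.
mmu-miR-322-5p: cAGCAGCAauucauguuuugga
mmu-miR-503-5p: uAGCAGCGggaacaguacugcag
mmu-miR-351-5p: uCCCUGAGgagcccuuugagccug
mmu-miR-542-3p: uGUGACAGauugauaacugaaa
mmu-miR-450a-5p: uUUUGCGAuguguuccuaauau
mmu-miR-450b-5p: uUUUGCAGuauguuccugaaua
The seed of miR-503-5p ends in another base than that of miR-322-5p (A8G, counted from 1 at the 5′ end, with the base of miR-322-5p first), and those of miR-450b-5p and miR-450a-5p differ at their last 2 positions (A7G and G8A, with the base of miR-450b-5p first). No pair of these 6 arms has an identical seed. The only members with an identical seed are 2 minor arms, shown next because their reads are hard to tell apart.
mmu-miR-450b-3p: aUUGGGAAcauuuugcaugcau
mmu-miR-450a-1-3p: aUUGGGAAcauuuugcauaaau
These match over their first 18 bases and differ only by G19A and C20A, with the base of miR-450b-3p first, so a read that lacks the 3′ end could be counted under either. miR-450a-5p has the same sequence in both miR-450a hairpins. Its 2 entries in the table differed by at most 2 reads in a library, and the higher one stands for both.

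With 1 entry kept per name, the induced libraries held 9089319 to 13946613 reads and the uninduced libraries 8697384 to 11714847. Levels are given as CPM, counts per 1000000 reads scaled by TMM factors. Since 1 read spans a whole mature microRNA, no scaling by length was made, but adapter ligation differs between sequences, so levels of different microRNAs compare only approximately. A count of 0 in a library allows up to 0.220 to 0.336 CPM on this scale, counting error only. Haematopoietic markers were present, from a list that is not specific to the labelled progenitor type. The summed level of 5 haematopoietic microRNAs (miR-223-3p, both arms of miR-142a, miR-150-5p and miR-155-5p) was 74274 to 91870.1 CPM in induced and 71759 to 90767 CPM in uninduced libraries, and 0 of the 5 passed the test. For muscle, where miR-322 and miR-503 are known to act in differentiation, the summed level of 4 muscle microRNAs was 0.112 to 0.367 CPM induced and 0.275 to 0.333 CPM uninduced, with miR-206-3p at 0 reads. Of 5 stromal markers, which include miR-143-3p and miR-145a-5p, 1 passed the test downward, and their sum was 145 to 215 CPM induced against 229.8 to 270 CPM uninduced, with miR-214-3p at 0 reads. Of 7 epithelial markers, the miR-200 family with miR-205-5p and miR-203-3p, 3 passed upward, with a sum of 81.2 to 101 CPM induced against 32.2 to 39.8 CPM uninduced and none at 0 reads. The 2 neural markers summed to 0.914 to 1.46 CPM induced against 0.222 to 0.458 CPM uninduced, with miR-124-3p at 0 reads and 0 passing. The part of the stromal, epithelial and neural microRNAs in the results that follow was not tested. The 2 erythroid markers (miR-144-3p at 0 reads) and miR-122-5p of liver summed to at most 0.367 CPM each in any library.

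The cluster was a small part of the microRNA pool, and its summed level was higher in every induced library than in any uninduced one. In such bulk samples, fewer cells of a type and less RNA per cell cannot be told apart. All 13 members together made up 0.406%, 0.403% and 0.337% of the reads of the induced libraries of trials 1, 2 and 3, against 0.218%, 0.220% and 0.217% in the uninduced libraries. Their summed level was 3802 ± 329.6 CPM in induced and 2197 ± 117 CPM in uninduced cells (SD, n = 3 each), a ratio of 1.73. Without miR-351-5p, the most abundant member, the sums were 1798 ± 129 CPM induced and 1246 ± 68.5 CPM uninduced, a ratio of 1.44.

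Levels of single arms spanned more than 3 orders of magnitude within the cluster. In both groups miR-351-5p came first, miR-322-5p second and miR-450b-5p after it, each separated from the next by every library. miR-322-3p, miR-450a-5p and miR-542-3p formed a second tier between 64.2 and 151 CPM. In induced libraries neighbours within this tier overlapped, and in uninduced libraries miR-450a-5p and miR-542-3p did, while miR-322-3p lay above both. Both arms of miR-503, miR-542-5p and miR-450b-3p lay between 2.56 and 11.0 CPM. miR-351-3p and miR-450a-1-3p, which overlapped in both groups, lay between 1.00 and 3.41 CPM. miR-450a-2-3p had 4 reads in the induced libraries together and 3 in the uninduced ones, too few to test or to give a ratio. Among all 1915 names, miR-351-5p ranked 61st by mean CPM, miR-322-5p 77th and miR-450b-5p 95th.

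**Figure D1:**
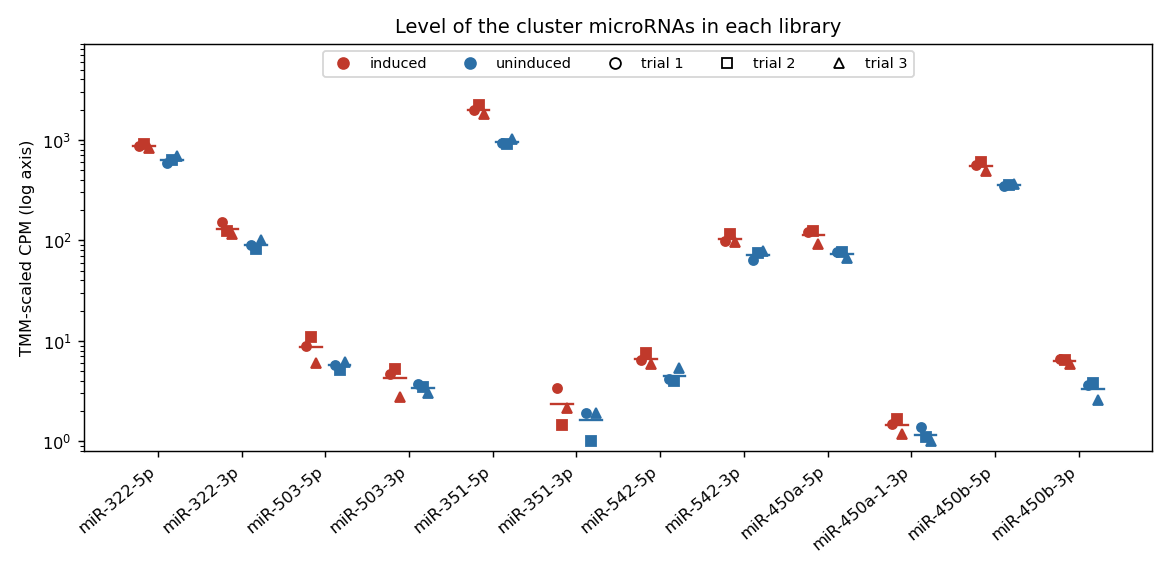
TMM-scaled CPM (log axis) of the 12 tested cluster microRNAs in 3 induced (red) and 3 uninduced (blue) libraries, in the order of their hairpins; symbols mark the trial and lines the group means. miR-351-5p lies at 1801 to 2206 CPM in induced and 901 to 1010.1 CPM in uninduced libraries, and the groups overlap for 4 members, all under 12 CPM.

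Of the 13 members 12 passed the filter on low counts, and the comparison of induced with uninduced cells was fitted over all 525 microRNAs that did. mmu-miR-351-5p, whose seed is that of the miR-125 family, had 2004, 2206 and 1801 CPM in the induced libraries of trials 1, 2 and 3, against 941, 901 and 1010.1 CPM in the uninduced ones. Every induced library lay far above every uninduced one. It rose by 1.08 on the log2 scale (SE 0.12, edgeR quasi-likelihood test, adjusted p = 0.00074), a fold of 2.11 with a 95% interval of the log2 change from 0.80 to 1.35. Its call held in each of the 17 alternatives, including the 6 that left out 1 library.

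mmu-miR-450b-5p, at the other end of the cluster, had 558, 606 and 493 CPM in induced and 345, 352 and 368 CPM in uninduced libraries. The groups did not overlap, and it rose by 0.64 (SE 0.13, edgeR adjusted p = 0.0203). miR-450a-5p had 122, 125 and 91.6 CPM induced and 75.8, 76.6 and 67.2 CPM uninduced. It rose by 0.62 (SE 0.16), with an edgeR adjusted p of 0.0499 that was just under the threshold of 0.05. The rare arm miR-450b-3p had 6.64, 6.39 and 5.88 CPM induced and 3.63, 3.78 and 2.56 CPM uninduced, again without overlap. It rose by 0.93 (SE 0.22, edgeR adjusted p = 0.0427), on 217 reads induced and 96 uninduced in all. These 3 calls were less stable than that of miR-351-5p. Of the 6 fits that left out 1 library, miR-450b-5p passed in 2, those without replicate 3 of either group. miR-450a-5p passed in 1, without induced replicate 3, and miR-450b-3p in 0, with edgeR adjusted p up to 0.123, 0.184 and 0.169 for the 3 in this order. With DESeq2's size factors or total reads in place of TMM, and with limma-voom, miR-351-5p and miR-450b-5p kept their calls while miR-450a-5p and miR-450b-3p lost theirs.

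mmu-miR-322-5p, which carries the seed of the miR-15 and miR-16 family, had 874, 901 and 833 CPM in induced libraries and 592, 625 and 689 CPM in uninduced ones. The groups did not overlap, but the log2 change of 0.45 (SE 0.12) missed the threshold (edgeR adjusted p = 0.0559). With the trial as a block, a pairing inferred from these same data, it passed at an edgeR adjusted p of 0.00344. The other arm of the hairpin, miR-322-3p, had 151, 125 and 117 CPM induced against 89.7, 81.3 and 99.9 CPM uninduced, with a log2 change of 0.53 (SE 0.15) and an edgeR adjusted p of 0.0693, or 0.00447 with the block. miR-542-3p, reported in human cells to target survivin, had 99.7, 115 and 96.9 CPM induced against 64.2, 75.1 and 77.6 CPM uninduced. Its log2 change was 0.52 (SE 0.14), and the edgeR adjusted p was 0.0629, or 0.00255 with the block. For all 3 the induced libraries lay above the uninduced ones without overlap. DESeq2 called miR-322-3p (adjusted p = 0.0381) and miR-542-3p (0.047) but not miR-322-5p (0.0506), and it lost the call of miR-450b-3p (0.0549).

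The 5 remaining tested arms, each under 12 CPM, passed neither fit. miR-503-5p had 8.97, 11.0 and 6.02 CPM induced against 5.77, 5.11 and 6.23 CPM uninduced, a log2 change of 0.59 (SE 0.25, edgeR adjusted p = 0.210 unblocked and 0.0747 blocked). In this case the groups overlapped, since the induced library of trial 3 lay below the uninduced library of the same trial. For miR-503-3p the log2 change was 0.30 with a 95% interval from -0.32 to 0.92, miR-351-3p one of 0.54 (-0.31 to 1.38) and miR-450a-1-3p one of 0.30 (-0.39 to 0.98). miR-542-5p, at 6.48, 7.62 and 5.88 CPM induced against 4.16, 4.0 and 5.40 CPM uninduced, had separate groups and a log2 change of 0.54 (SE 0.22, edgeR adjusted p = 0.183, or 0.0722 with the block). The intervals of miR-503-3p, miR-351-3p and miR-450a-1-3p hold both no change and the change of miR-322-5p, so at this depth these arms cannot be told apart from either.

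Across the cluster, 4 of 12 tested members passed the test upward and 0 downward, where 3.43% of all tested microRNAs passed upward and 6.1% in either direction. With the trial as a block 7 passed upward and 0 downward, where 10.7% of all tested passed upward and 21.7% in either direction. The CPM of 8 members was higher in each induced library than in any uninduced one, which held for 16.0% of all tested microRNAs. All 12 log2 changes were above 0, as were 52.2% of those of all tested, and ranged from 0.30 to 1.08 with a median of 0.54, against a median of 0.02 over all tested. Before adjustment, 9 of the 12 had an edgeR p under 0.05, as did 20.8% of all tested. Members of 1 cluster are not independent of each other, and 2 of the 4 calls are arms of 1 hairpin. All 12 changes also stayed above 0 with DESeq2's size factors, with total reads in place of TMM and in each fit that left out 1 library.

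**Figure D2:**
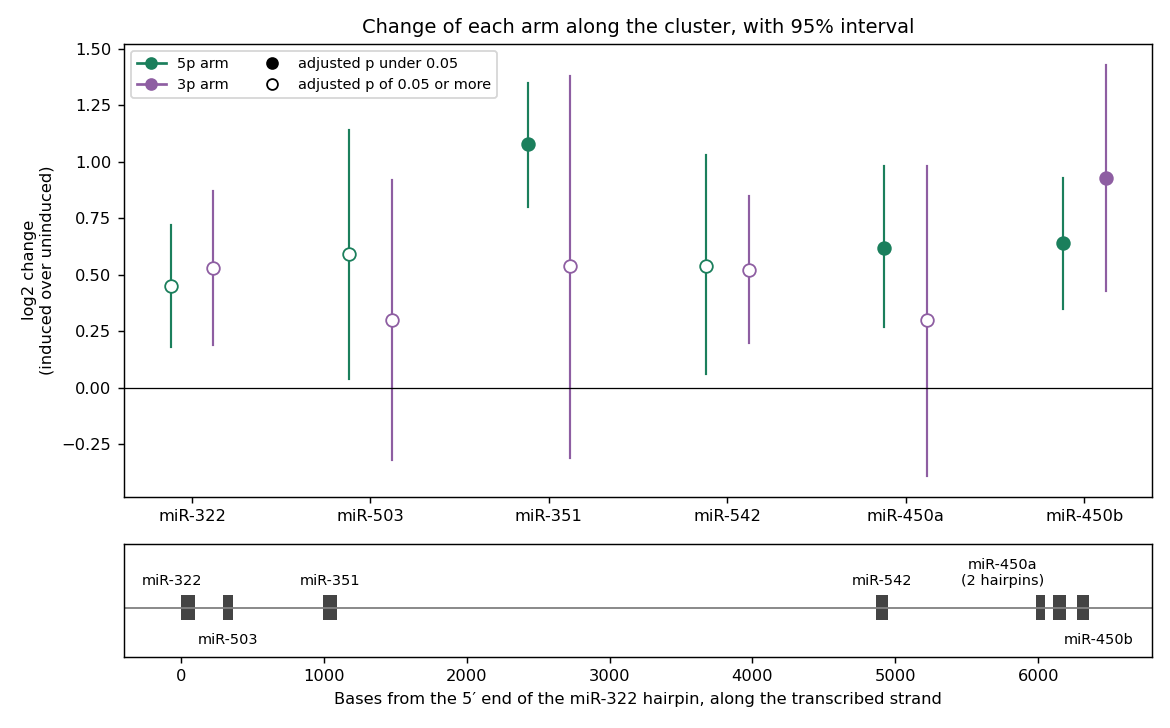
Upper panel: log2 change (induced over uninduced) of the 5p and 3p arm of each hairpin in cluster order, with 95% intervals; filled points have an edgeR adjusted p under 0.05. Lower panel: the 7 hairpins drawn to scale by distance from the start of the miR-322 hairpin. Every point lies above 0, with miR-351-5p highest at 1.08, and the intervals of 3 low 3p arms cross 0.

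The estimated changes neither rose nor fell steadily along the order of the hairpins, and a trend with position was not tested. The first hairpin, miR-322, had changes of 0.45 and 0.53 for its arms, and miR-542 behind the long gap had 0.54 and 0.52. At the far end the more abundant arms miR-450a-5p and miR-450b-5p had 0.62 and 0.64. Between these lay miR-503, with changes of 0.59 (95% interval 0.04 to 1.14) and 0.30 for its 5p and 3p arms, and miR-351, with 1.08 and 0.54. The interval of miR-503-5p holds the change of miR-351-5p, and miR-450b-3p had a change of 0.93, inside the interval of miR-351-5p. Differences between these arms were tested only through the ratios given below. These are the ratios to miR-322-5p and to further denominators, and the ratios of 5p to 3p reads of a hairpin.

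Whether members changed by different factors was tested by scaling each library to its reads of miR-322-5p instead of by TMM, so that a change is a change of the ratio to the first hairpin's major arm. For every 100 reads of miR-322-5p there were 229, 245 and 216 reads of miR-351-5p in the induced libraries of trials 1, 2 and 3, against 159, 144 and 147 in the uninduced ones. The ratio was thus higher in each induced library, and it rose by 0.62 on the log2 scale (SE 0.13, 95% interval 0.34 to 0.90, edgeR adjusted p = 0.00491). Among all 524 other microRNAs, 2.29% had a ratio to miR-322-5p that passed upward and 38.5% one that passed in either direction. With the trial as a block the ratio of miR-351-5p passed at 7.1e-06, where 2.86% of the others passed upward. Of the 11 other tested members, miR-351-5p was the only one that passed in either direction. miR-450b-5p had 63.9, 67.2 and 59.1 reads per 100 of miR-322-5p induced and 58.3, 56.2 and 53.3 uninduced, a log2 change of 0.18 with a 95% interval from -0.12 to 0.49. For miR-450b-5p and miR-450b-3p, as for miR-351-5p, the ratio was higher in each induced library than in any uninduced one. Neither miR-450b arm passed (edgeR adjusted p = 0.304 for 5p and 0.153 for 3p). The share of all 524 other microRNAs with such separate ratios was not computed, so no result is drawn from the separation. miR-542-3p had 11.4, 12.8 and 11.6 against 10.8, 12 and 11.2, a log2 change of 0.07 (-0.25 to 0.40). For the 4 abundant members that did not pass (miR-322-3p, miR-542-3p, miR-450a-5p and miR-450b-5p), the intervals reached at most 0.53 upward on the log2 scale. The interval of miR-450b-3p, from -0.08 to 1.02, held that of miR-351-5p whole.

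A further 2 denominators, chosen after these values were seen, gave the same call for miR-351-5p. They reuse the same libraries, and 1 of them includes miR-322-5p, so they are not separate support. Relative to miR-450b-5p it rose by 0.44 (SE 0.12, edgeR adjusted p = 0.0133), and relative to the summed reads of the other 12 members by 0.54 (SE 0.12, edgeR adjusted p = 0.00655). Its share of all reads of the cluster was 52.2%, 53.7% and 52.1% in induced and 44.2%, 42.3% and 43.3% in uninduced libraries. The share of miR-322-5p was 22.8%, 21.9% and 24.1% in induced and 27.8%, 29.4% and 29.6% in uninduced libraries, although its own CPM was higher in each induced library. Since miR-351-5p makes up so much of the cluster, shares of the whole move against each other. The alternative denominator planned beforehand was the sum of all 13 members. With it the log2 change of miR-351-5p was 0.28 and missed the threshold (edgeR adjusted p = 0.0615), and miR-322-5p fell by 0.34 (edgeR adjusted p = 0.0438).

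**Figure D3:**
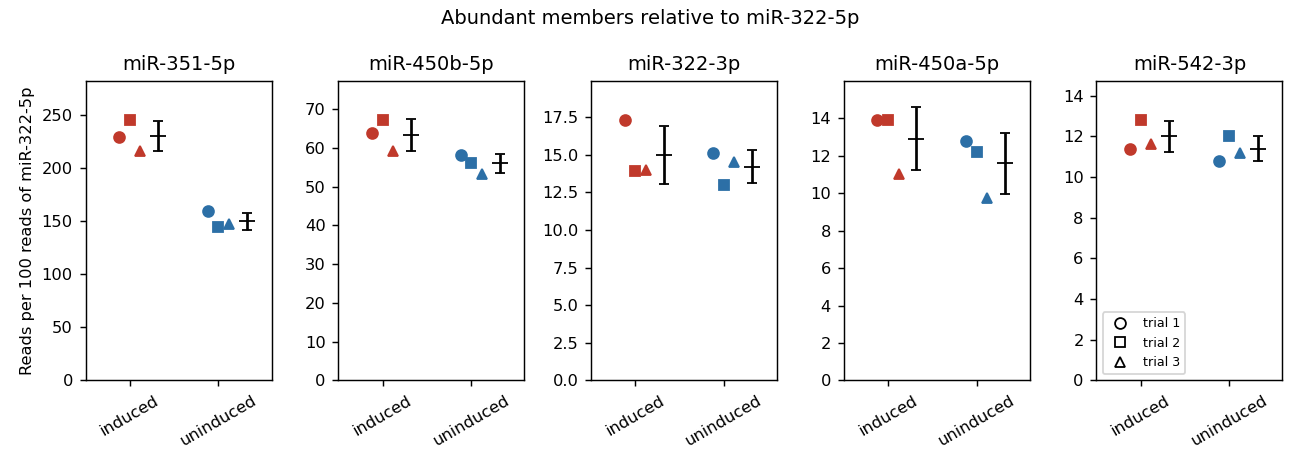
Reads of the 5 most abundant other members per 100 reads of miR-322-5p in 3 induced (red) and 3 uninduced (blue) libraries; symbols mark the trial and black bars mean ± SD, on axes that start at 0. For miR-351-5p the induced libraries lie at 216 to 245 and the uninduced ones at 144 to 159. The groups lie close together without overlap for miR-450b-5p, which did not pass, and overlap in the other panels.

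No hairpin of the cluster passed a test for a change in its choice of arm. The miR-322 and miR-542 hairpins are printed here with both mature arms in capitals, since they favour opposite sides.
miR-322 hairpin (chrX:53054255-53054349, minus strand): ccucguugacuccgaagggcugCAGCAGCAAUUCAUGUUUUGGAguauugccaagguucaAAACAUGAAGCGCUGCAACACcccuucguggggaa
miR-542 hairpin (chrX:53049403-53049487, minus strand): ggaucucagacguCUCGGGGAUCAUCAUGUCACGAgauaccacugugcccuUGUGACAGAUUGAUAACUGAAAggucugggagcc
The 5p arm took 86.9% ± 1.4 of the reads of miR-322 in induced and 87.6% ± 0.85 in uninduced cells (SD, n = 3 each). In miR-542, the only hairpin of the cluster that favoured its 3p arm, the 5p arm took 6.01% ± 0.25 induced and 5.89% ± 0.75 uninduced. The other hairpins favoured the 5p arm to very different degrees. It held 67.3% ± 1.3 of the miR-503 reads in induced and 62.6% ± 4.1 in uninduced cells, the most even split of the cluster. It held 98.9% ± 0.077 of miR-450b induced and 99.1% ± 0.21 uninduced, and 98.6% ± 0.25 and 98.3% ± 0.33 of miR-450a, whose 3p arms were summed over both hairpins. In miR-351 the 5p arm outnumbered the 3p arm by 823 to 1 in the summed induced libraries and by 582 to 1 in the uninduced ones.

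The ratio of 5p to 3p reads was tested in 1 model over the 95 hairpins of the table whose arms each averaged at least 50 reads, of which 1.05% passed. Of the cluster, miR-322, miR-542 and miR-450b qualified and 0 passed. Of the 3, 0 had an unadjusted edgeR p under 0.05, and limma on log2 arm ratios also passed 0. The change of the ratio, induced over uninduced, was -0.08 for miR-322 (95% interval -0.49 to 0.34), 0.03 for miR-542 (-0.45 to 0.51) and -0.30 for miR-450b (-0.83 to 0.22), each with an edgeR adjusted p of 0.988. With a minimum of 10 reads, miR-503 (0.28, interval -0.34 to 0.91), miR-351 (0.54, interval -0.28 to 1.35) and miR-450a (0.31, interval -0.38 to 1.01) entered as well, and none passed. For miR-450a this test set miR-450a-5p against miR-450a-1-3p alone, without miR-450a-2-3p.

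The median estimated change of the members was smaller in trial 3 than in trials 1 and 2, a difference that was not tested. Taken within a trial, all 12 tested members were higher in the induced library in trials 1 and 2, with a median log2 ratio of 0.66 in each. In trial 3 the median was 0.24, and 10 of the 12 were above 0, the exceptions being miR-503-5p at -0.05 and miR-503-3p at -0.11. Over all tested microRNAs the median log2 ratio was 0.03, 0.01 and -0.04 in trials 1, 2 and 3. These medians pool rises and falls, so they cannot show whether other risen microRNAs also changed less in trial 3. Trial 3 gave the smallest ratio for 10 of the 12 members, the exceptions being miR-450a-1-3p and miR-450b-3p. For these counts within single trials the matching shares of all tested microRNAs were not computed. Members of 1 cluster are also not independent of each other. For miR-351-5p the ratios were 1.09, 1.29 and 0.83, and for miR-322-5p 0.56, 0.53 and 0.27. The order of these members was thus the same in each trial. A log2 ratio above 0 in all 3 trials was found for 10 members, where 29.0% of all tested microRNAs had one. Each trial has 1 library per group, so the difference between trials was not tested.

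**Figure D4:**
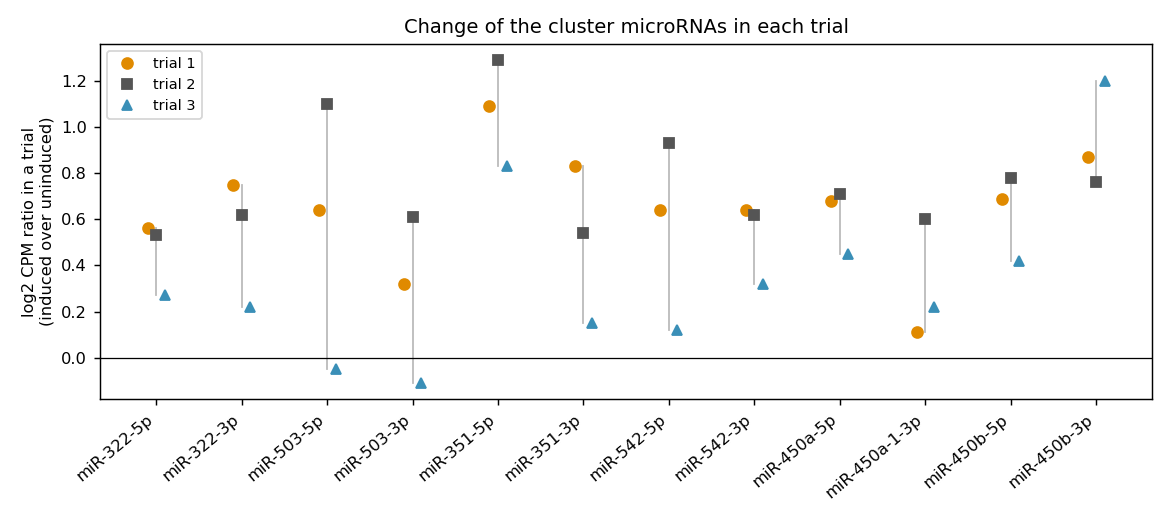
Log2 ratio of CPM (induced over uninduced) of the 12 tested cluster microRNAs within trials 1, 2 and 3. Trial 3 (blue triangles) lies lowest for 10 of the 12, for which the share of all tested microRNAs was not computed. miR-351-5p lies highest in trials 1 and 2 at 1.09 and 1.29.

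Seeds place the major arms beside other microRNAs of these cells, of which the most abundant relatives are printed here with bases 2 to 8 in capitals.
mmu-miR-16-5p: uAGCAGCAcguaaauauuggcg
mmu-miR-125a-5p: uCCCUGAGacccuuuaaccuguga
The seed of miR-322-5p is shared by miR-15a-5p, miR-15b-5p, miR-16-5p, miR-195a-5p, miR-497a-5p and 4 further names at 0 reads, a family known to restrain cyclin genes. miR-16-5p alone had 48086 ± 3935 CPM in induced and 42769 ± 1182 CPM in uninduced cells (SD, n = 3 each). miR-322-5p therefore supplied only 1.67% ± 0.0777 of the reads with this seed in induced and 1.37% ± 0.0908 in uninduced cells. Of the 4 relatives tested, 0 passed in either direction, with or without the block or in DESeq2 or limma-voom, and 0 had an unadjusted edgeR p under 0.05. Their log2 changes lay between 0.10 and 0.19.

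miR-351-5p, in contrast, was the main carrier of its seed. Together with miR-125a-5p, miR-125b-5p and 2 names at 0 reads, the pool summed to 2544 ± 368 CPM in induced and 1331 ± 54.7 CPM in uninduced cells (SD, n = 3 each), a ratio of 1.91. miR-351-5p held 74.2%, 78.6% and 84.8% of these reads in the induced libraries of trials 1, 2 and 3 and 67.5%, 69.2% and 77.9% in the uninduced ones. Its share was higher with induction in each trial, while the ranges of the groups overlapped. miR-125a-5p had 693, 600.2 and 320.2 CPM induced against 449, 396 and 283 CPM uninduced, a log2 change of 0.51 (SE 0.27, edgeR adjusted p = 0.320, or 0.00686 with the block). miR-125b-5p had a log2 change of -0.85 (SE 0.28, edgeR adjusted p = 0.112, or 0.0393 with the block) at 2.26 ± 0.237 CPM induced and 4.14 ± 1.2 CPM uninduced. Of the other major arms, miR-503-5p, miR-542-3p, miR-450a-5p and miR-450b-5p had no relative with an identical seed in the sequence table.

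The nearest other microRNAs with reads lie 305430 bases further along the same strand, in the cluster of miR-106a, miR-18b, miR-20b, miR-19b-2, miR-92a-2 and miR-363 (miR-106a hairpin at chrX:52742503-52742567). Within 1 Mb of the cluster the table lists 13 other mature names, of which 4 were tested and 0 passed with or without the block, or at an unadjusted edgeR p under 0.05, or in DESeq2 or limma-voom. miR-106a-5p, with 52 reads in the induced and 52 in the uninduced libraries, changed by -0.25 in log2 terms (SE 0.31) without passing, and miR-20b-5p, with 31 and 34 reads, gave -0.40 (SE 0.43). The remaining 2, miR-92a-3p (0.01, SE 0.09) and miR-19b-3p (-0.24, SE 0.12), have a further hairpin elsewhere in the genome, and their reads cannot be assigned to either.

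Outside the cluster, 317 microRNAs of at least 10 CPM were ranked by the Pearson correlation of their log2 CPM with that of the summed cluster over the 6 libraries. The highest were miR-484 (r = 0.988), miR-141-3p (0.984), miR-1249-3p (0.973), miR-1843b-5p (0.960) and miR-7068-3p (0.954). All libraries of a group share their treatment, so with 6 points in 2 groups this ranking is a description only. The sizes of change differed widely among the 5, from a log2 change of 0.16 (SE 0.10) for miR-484 to 1.78 (SE 0.18) for miR-1249-3p. Neither miR-484 nor miR-7068-3p (0.46, SE 0.15, edgeR adjusted p = 0.123) passed.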

How the data were processed

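Small RNA libraries of 3 induced and 3 uninduced cell samples were sequenced as single reads, per the labels' protocols. The deposited counts are raw reads per microRNA entry, aligned to miRBase per the series' design text. The authors' deposited CPM equal these counts scaled to 1000000 per library within 0.005 and were used for that check only. The submitters' processing notes name Trim Galore 0.4.0, DESeq2 2.1.8.0 and mm10; the read counter, and how reads with several matches were treated, is not stated in them. The table has 2061 entries for 1915 names. For the 83 names with several entries the one with the highest total was kept, which left out 17.49% of the summed entries. The total per library was 8697384 to 13946613 reads.

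The test of the counts was that of edgeR 4.0.16 (R 4.3.3) (TMM, filterByExpr, robust quasi-likelihood test, Benjamini-Hochberg adjustment over 525 microRNAs, threshold 0.05), after tests on simulated data. The arm test used library terms and the arm-by-group interaction. The ratio test scaled libraries to their miR-322-5p reads. DESeq2 1.42.0, limma 3.58.1, other scalings, entry rules, no filter, the trial as a block and leaving out libraries were alternatives. Same-numbered trials deviated from their group means together (correlations 0.33, 0.45 and 0.53 for trials 1, 2 and 3). The highest correlation of each induced library with an uninduced one of another trial was -0.11, 0.04 and -0.28. The numbers in the labels were therefore taken to pair the libraries. This choice rests on the same data as the blocked fits, and deviations within a group sum to 0, so these correlations are not independent. Named microRNAs are all members, those with a member's seed, those within 1 Mb and the 5 most correlated of at least 10 CPM. The members and lists were chosen with earlier results of these data known. Intervals are 95% and floors of 3 counts cover counting error only.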

Additional observations from a re-analysis of the deposited data

How the results depend on the processing

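The count of cluster members that passed was 4 of the 12 tested, and 2 with limma-voom, 2 with DESeq2's size factors in edgeR and 2 with total reads in place of TMM. DESeq2's own test gave 5, no filter on low counts 4, the sum of the entries per name 4 and the lowest entry 3. Leaving out 1 library gave 1 to 3, and 1, miR-351-5p, without induced replicate 1 or 2 or uninduced replicate 1 or 2. With the paired trials as a replicate block it was 7, and 1 when the block also left out both libraries of trial 3. Of all 525 tested microRNAs 32 passed, and 20 with limma-voom, 25 with DESeq2's size factors in edgeR and 22 with total reads. DESeq2's own test gave 37, summed entries 29 and the lowest entry 26, and no filter, which tests more microRNAs, gave 48. The count over all microRNAs was 114 with the block and 12 to 41 without 1 library. With the block and without trial 1, 2 or 3 it was 66, 60 and 12. The count of hairpins with a changed arm ratio, none of them in the cluster, was 1, 0 with limma, 4 with the block and 0 to 1 without 1 library. The count of members with a changed ratio to miR-322-5p was 1, miR-351-5p, in every alternative that kept this denominator, including each fit without 1 library. Other denominators test other ratios. Scaling to miR-450b-5p or to the members other than miR-351-5p also called miR-351-5p alone. The planned scaling to all members lost miR-351-5p and called miR-322-5p downward. Of the values for single members and hairpins under the alternatives, 323 kept their side of the threshold, 10 crossed to under it and 27 to above it, and 0 changed direction past it. The cause of these shifts was not tested. The 5 tested arms that passed in neither fit had 49 to 288 reads in the induced and 34 to 168 in the uninduced libraries together, with an SE of the log2 change of 0.22 to 0.38. miR-450a-2-3p, with 4 reads induced and 3 uninduced, was not tested.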
